A study of Mus musculus with 4 samples.

Results

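The genes examined were Cd36, Slc27a1, Slc27a4, Fabp4, Fabp5, Acsl1, Acsl3, Acsl4, Acsl5 and Acsl6, 10 of 21627 protein-coding genes in the RefSeq table used. They were taken by name for their roles in the uptake, carriage and activation of fatty acids. A gene's regions were the stretches of open chromatin that overlapped its body or the 5000 bp on either side, after the peaks of all libraries were merged wherever they shared at least 1 bp. That gave 143 regions at the 10 genes, of 337776 on the autosomes and X.

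The data were ATAC-Seq, in which a transposase cuts accessible DNA and stretches with many fragment ends are called as peaks. Cells were bone marrow stem or progenitor cells of adult C57BL/6, CD45.2 mice, with 2 control and 2 KO libraries. Control mice were Cpt1a fl/fl, named WT in the labels, and KO mice carried the same floxed alleles deleted by Vav1-Cre, a driver that is active in blood cells at large, mature as well as immature. The labels name the cells ltHSC and the study names them HSPCs, and no source used here says whether a library came from a mouse of its own or from a pool, so p-values measure only the spread between these libraries.

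Long-chain fatty acids enter cells with the help of the scavenger receptor CD36 and the transport proteins of the SLC27A (FATP) family. In the cytosol they are bound by small FABP carriers, and long-chain acyl-CoA synthetases (ACSL) join them to coenzyme A, which traps them in the cell. The resulting acyl-CoA is built into lipids or is handed to CPT1A, the enzyme deleted here, for import into mitochondria and oxidation.

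The lists gave for each summit the authors' fold over local background but no read counts, so read depth is unknown. A region was described by the highest fold of its summits and by its percentile within the library, where 100 is the highest fold among that library's 152879 to 172740 regions. Peaks covered 52.9 and 48.9 Mb in the control libraries and 42.6 and 44.4 Mb in the KO libraries, so peak bases were fewer in KO across the genome. Gene starts were accessible in general: among protein-coding genes with a start in the promoter table, 63.2% had a start in a region of all 4 libraries, and such start-site regions had a median percentile between 93.3 and 94.4 per library. Start sites of the stem and progenitor markers listed (Kit, Procr, Slamf1, Mecom, Hlf, Gata2, Tal1, Erg and Cd34) lay in regions of all 4 libraries for 9 of 9 genes, and those of the adipocyte markers (Adipoq, Lep, Plin1, Cidec and Cfd) for 0 of 5. The same count was 3 of 3 for endothelial, 1 of 3 for macrophage, 4 of 5 for neutrophil, 0 of 3 for erythroid and 2 of 2 for B cell markers. It was 0 of 4 for T cell markers, where the starts of Cd3g and Lck each had a peak in 3 libraries. The stem and progenitor starts had median percentiles of 74.5 and 65.3 in control and 81.0 and 73.8 in KO, below those of start-site regions in general. The part of other cell types in the results was not tested. The start of Cpt1a itself ranked at 83.7 and 79.9 in control and 84.1 and 88.4 in KO. An open start does not check the deletion.

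Promoters of the 8 genes with a listed start ranged from strongly open to closed, and 6 of them are shown because they mark the ends of that range. Fabp4 and Fabp5 had no listed start and could not be ranked. Letters run 5′ to 3′ along the gene, from 250 bases before to 50 bases after a start listed by RefSeq, on mm10 (GRCm38.p6). Taking the best-ranked listed start of each gene, the 3 with the strongest start-site regions were Slc27a4 (chr2:29802384-29802683, plus strand), Acsl3 (chr1:78657575-78657874, plus strand) and Acsl1 (chr8:46470787-46471086, plus strand). The 3 with the weakest were Acsl5 (chr19:55253119-55253418, plus strand), Acsl6 (chr11:54303954-54304253, plus strand) and Cd36 (chr5:17835847-17836146, minus strand), where no library had a peak. Capitals mark matches on either strand to the TATA string TATAA, the CCAAT box, the GC box GGGCGG, the nuclear receptor string AGGTCA, the ETS string GAGGAA, the GATA string AGATAA or the E-box CACGTG, and matches that overlap run together.
Slc27a4: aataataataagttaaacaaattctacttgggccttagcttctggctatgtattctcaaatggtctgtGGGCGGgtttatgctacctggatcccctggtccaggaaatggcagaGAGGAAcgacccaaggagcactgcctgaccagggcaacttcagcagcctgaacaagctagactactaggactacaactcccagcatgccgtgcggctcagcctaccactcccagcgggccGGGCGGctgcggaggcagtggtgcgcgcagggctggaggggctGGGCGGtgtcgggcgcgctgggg
Acsl3: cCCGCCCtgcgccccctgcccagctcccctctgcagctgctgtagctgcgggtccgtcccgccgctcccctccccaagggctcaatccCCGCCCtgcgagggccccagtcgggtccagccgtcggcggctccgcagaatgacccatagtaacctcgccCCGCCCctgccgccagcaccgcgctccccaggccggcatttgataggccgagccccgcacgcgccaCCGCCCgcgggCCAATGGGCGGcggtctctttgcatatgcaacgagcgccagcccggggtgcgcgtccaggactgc
Acsl1: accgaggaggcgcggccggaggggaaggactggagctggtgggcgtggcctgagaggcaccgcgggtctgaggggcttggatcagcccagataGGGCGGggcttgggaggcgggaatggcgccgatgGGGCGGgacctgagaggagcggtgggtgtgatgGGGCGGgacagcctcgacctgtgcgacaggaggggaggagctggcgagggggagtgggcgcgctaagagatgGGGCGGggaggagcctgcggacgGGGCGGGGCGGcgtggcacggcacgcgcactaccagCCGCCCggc
Acsl5: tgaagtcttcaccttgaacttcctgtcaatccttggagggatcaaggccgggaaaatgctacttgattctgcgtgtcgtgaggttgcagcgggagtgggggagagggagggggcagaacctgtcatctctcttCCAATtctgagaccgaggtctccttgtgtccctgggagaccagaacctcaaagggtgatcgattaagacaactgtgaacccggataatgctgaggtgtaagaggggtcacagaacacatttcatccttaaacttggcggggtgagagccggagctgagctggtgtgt
Acsl6: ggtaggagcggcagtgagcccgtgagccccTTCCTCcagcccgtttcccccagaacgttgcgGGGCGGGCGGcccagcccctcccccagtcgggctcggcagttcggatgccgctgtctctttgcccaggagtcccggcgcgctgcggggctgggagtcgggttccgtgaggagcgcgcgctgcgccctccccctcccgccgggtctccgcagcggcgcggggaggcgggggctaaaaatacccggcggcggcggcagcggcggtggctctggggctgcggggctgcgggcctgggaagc
Cd36: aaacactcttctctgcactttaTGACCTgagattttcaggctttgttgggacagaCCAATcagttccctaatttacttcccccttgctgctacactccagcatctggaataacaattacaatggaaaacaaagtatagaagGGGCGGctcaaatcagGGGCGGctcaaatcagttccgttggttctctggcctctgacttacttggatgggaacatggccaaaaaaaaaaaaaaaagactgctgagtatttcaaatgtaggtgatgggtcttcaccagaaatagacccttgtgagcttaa

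The GC box, GGGCGG, is the letter string bound by SP1-type factors. It occurred 3 times in the Slc27a4 promoter, 5 times in that of Acsl3 and 7 times in that of Acsl1. The Acsl6 and Cd36 promoters held 2 matches each and the Acsl5 promoter held 0. Over the 32619 promoters of the table, 35.9% held at least 1 match, with 64.7% of those whose start lay in a region of all 4 libraries and 10.1% of those with no peak at the start. The other strings occurred in 25.0% (TATAA), 37.6% (CCAAT), 16.2% (AGGTCA), 28.2% (GAGGAA), 11.2% (AGATAA) and 7.20% (CACGTG) of all promoters. Neither TATAA nor AGATAA occurred in any of the 13 promoters listed for these genes.

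Base composition of the shown promoters did not strictly follow their rank. GC content was 58.7% for Slc27a4, 74.0% for Acsl3 and 74.0% for Acsl1, with 14, 33 and 30 CpG dinucleotides. Acsl5 had 53.0% GC and 9 CpG, and Cd36 had 43.0% GC and 3 CpG. Acsl6, the weakest of the open starts, had 76.0% GC and 36 CpG, the highest of the 6 in both. For scale, promoters open in all 4 libraries had a median GC content of 61.7% and 21 CpG, and promoters with no peak had 47.0% and 3 CpG.

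Of the 143 regions, 37 (25.9%) had a peak in all 4 libraries, against 23.8% of all regions, and 71 had a peak in a single library. In the order control 1, control 2, KO 1 and KO 2, that library held 20, 18, 14 and 19 of the 143. Over all 337776 regions the same counts were 53898, 35794, 54619 and 55912. Regions held by both control libraries and neither KO library numbered 6 (4.20%), where 2.46% of all regions were of this kind. Only 1 region (0.699%) was held by both KO libraries and neither control library, against 1.41% of all regions. All 7 were weak, with folds between 2.23 and 4.74 and percentiles of 2.37 to 64.2. The regions in all 4 libraries had a median width of 552 bp, against 114 bp for those in a single library. Their best −log10 q had a median of 23.6 against 1.03. Width spans the merged peaks and the best q is the highest over libraries, so both tend to rise with the number of libraries by construction.

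Uptake genes were open at the start for both transporters but not for Cd36. Slc27a4 encodes FATP4, a transporter with acyl-CoA synthetase activity. Its start-site region (chr2:29802477-29803263) had folds of 20.5 and 17.6 in control and 23.8 and 18.9 in KO. Percentiles were 98.8 and 97.2 in control and 99.7 and 98.6 in KO, so the genotypes overlapped. Ranked only among the regions that hold a start site, it stood at percentiles of 86.2, 73.9, 96.0 and 85.0 in control 1, control 2, KO 1 and KO 2. Its strongest summit lay between 26 bp before and 2 bp after the listed start in every library. Differences in log2 fold, here and below, were taken after centering each library on its median, so they depart from those of the printed folds. On that scale KO was 0.28 higher (95% interval −0.20 to 0.77, limma adjusted p = 0.785). The spread between libraries covered that difference.

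Another Slc27a4 region, at chr2:29803415-29803703 within the gene, ranked at 80.5 and 79.9 in control and at 79.8 and 73.5 in KO. The KO values lay below both controls, but for KO 1 by a margin far smaller than the gap between the KO libraries. The other regions of all 4 libraries in the Slc27a4 window lay beyond the gene's end and ranked between 79.2 and 87.8.

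Slc27a1 encodes FATP1, best known as a transporter of muscle and fat. Its start-site region (chr8:71569512-71570879) had folds of 11.6 and 13.8 in control and 14.0 and 9.94 in KO, with percentiles of 91.6, 93.8, 94.5 and 90.2. The KO libraries were both the highest and the lowest of the 4. The region covers 2 of the 3 listed starts, at 71569597 and 71570594, and the strongest summit lay 58 bp after, 6 bp before, 5 bp before and 178 bp before the latter in the order control 1, control 2, KO 1 and KO 2. The remaining start, at 71568871, had no peak in any library. A region in the flank (chr8:71591305-71592655) ranked between 87.2 and 91.5, but it covers the start of the neighboring gene Pgls. The single region held only by KO libraries among all 10 genes lay in the body of Slc27a1 (chr8:71581071-71581182), with folds of 2.51 and 2.23 at percentiles of 15.2 and 2.37.

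Cd36, which encodes the scavenger receptor CD36, had no peak at its listed start (position 17835896, minus strand) in any of the 4 libraries. The annotated gene extends 53063 bp upstream of that start, and its far upstream end had no region closer than 11841 bp. Of the 14 regions in its window of 117270 bp, 4 were in all libraries, and all 4 lay within the annotated gene. The strongest of these by mean percentile over the 4 libraries (chr5:17839568-17839915) was centered 3846 bp upstream of the listed start. Its folds were 6.82 and 6.23 in control and 4.24 and 4.89 in KO, and its percentiles were 79.9 and 74.1 against 65.1 and 71.7.

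Both KO values of that Cd36 region lay below both controls, but the test did not separate them (limma on percentiles, unadjusted p = 0.203, adjusted p = 0.873). On the log2 fold scale the KO minus control difference was −0.40, with a 95% interval of −0.89 to 0.10. A region 18842 bp upstream (chr5:17854548-17854927) went the other way, with percentiles of 67.2 and 66.6 in control and 68.0 and 80.6 in KO. A weaker one, held only by the control libraries (chr5:17850597-17850861), had folds of 3.25 and 4.74 and ranked at 48.2 and 64.2. Regions of Cd36 thus differed among themselves in which genotype ranked higher, and peaks covered 1.52% and 1.08% of the window in control and 1.04% and 1.29% in KO, which overlap.

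**Figure D1:**
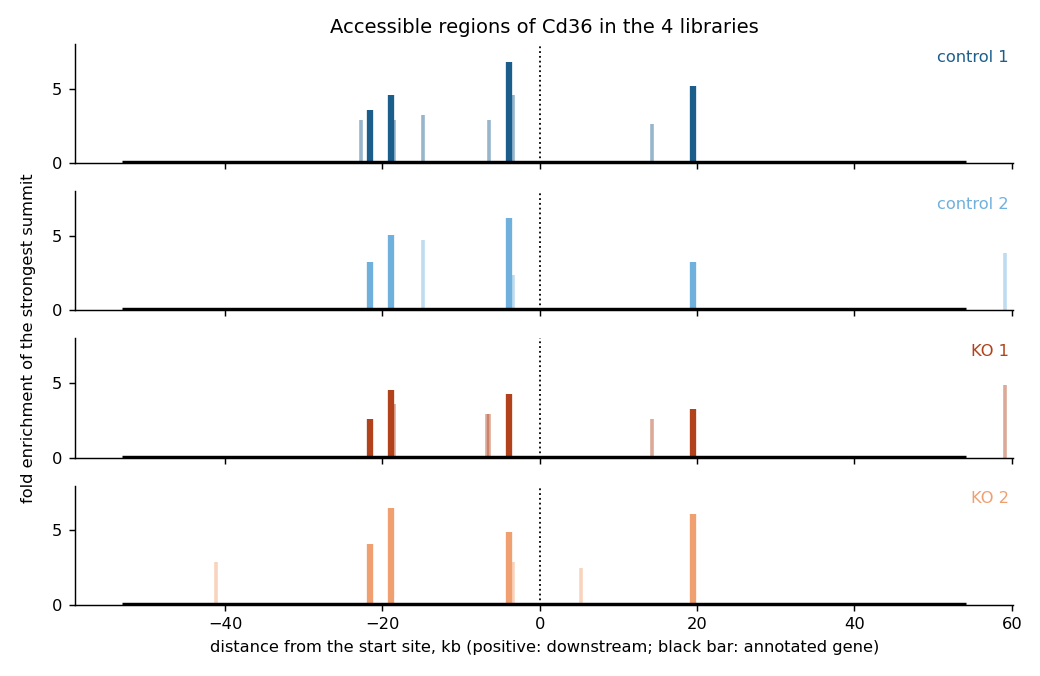
Fold enrichment of the strongest summit (vertical axis) of each Cd36 region against distance from the listed start site in kb (horizontal axis, positive downstream), with a panel per library. Thick bars are the 4 regions found in all libraries and thin pale bars those found in fewer. No bar stands at the dotted line that marks the start site, and the tallest bar in both control libraries is the region 3.8 kb upstream. In KO 1 the tallest bar is a region 59.1 kb downstream (fold 4.89), and in KO 2 the region 18.8 kb upstream (fold 6.52).

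The carriers differed from each other more than either did between genotypes. Fabp5 encodes the broadly expressed epidermal fatty acid-binding protein. A region of 1200 bp (chr3:10012163-10013362) covered the lower-coordinate end of the gene, with the strongest summit 30 to 57 bp outside that end in every library. Folds were 15.8 and 12.2 in control and 16.7 and 14.9 in KO. In percentiles, the values of 96.7 and 96.2 in KO stood above the 96.0 and 91.5 in control, and control 2 was the low library. The log2 fold difference was 0.31 (95% interval −0.19 to 0.82, limma adjusted p = 0.768).

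Another Fabp5 region, at chr3:10009470-10009662, ranked between 67.9 and 76.1 with the genotypes overlapping, and a weak one (chr3:10020500-10020604) was held only by the control libraries at folds of 2.93 and 3.26. Fabp4 encodes the carrier that is abundant in adipocytes and macrophages. In its body, the 3 regions seen each had a peak in a single library, with folds of 2.27 to 2.85. The only Fabp4 region in all 4 libraries (chr3:10213206-10213670) lay 4590 bp beyond the higher-coordinate end of the gene, and ranked at 78.6 and 61.5 in control and 56.1 and 63.8 in KO. Control 1 stood apart there: without that library the KO minus control difference was −1.78 percentile points, against −10.1 with all 4.

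The plot of strongest regions sets the 10 genes side by side. In 7 of them that region lay at a listed start or, for Fabp5, at a gene end, and its percentile was at least 87.3 in every library. For Cd36, Fabp4 and Acsl6 the strongest region was elsewhere.

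**Figure D2:**
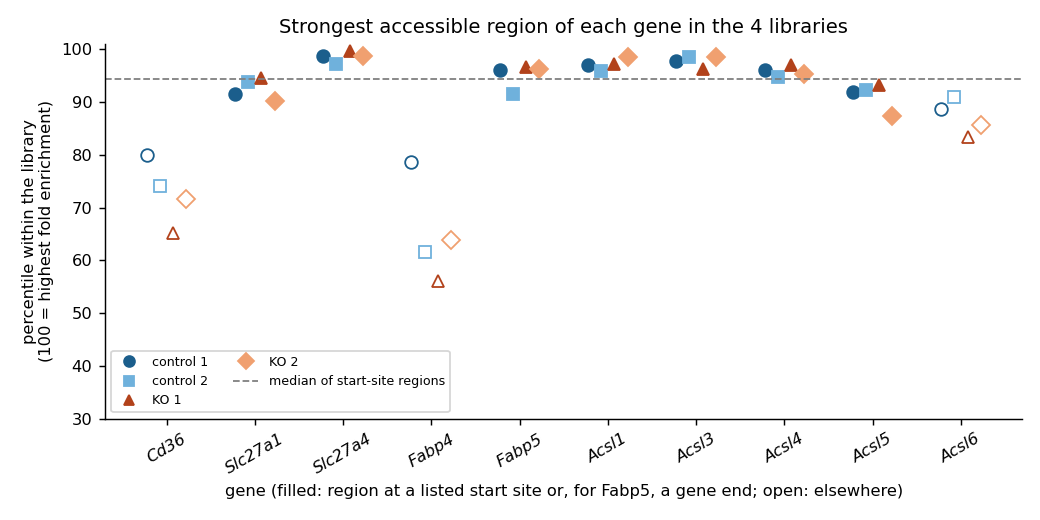
Percentile within each library (vertical axis, 100 is the highest fold) of the region with the highest mean percentile of each gene (horizontal axis, uptake genes, carriers, then synthetases). Filled symbols are regions at a listed start or, for Fabp5, at a gene end, and the dashed line is the median of start-site regions. Slc27a4 has the highest mean, with values between 97.2 and 99.7, and Fabp4 holds the lowest point, at 56.1.

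Among the activating enzymes, the starts of Acsl1, Acsl3, Acsl4 and Acsl5 were open in all 4 libraries and that of Acsl6 was weak. Acsl1 encodes the main synthetase of liver, fat and muscle. Its start-site region (chr8:46470442-46471806) had folds of 17.1 and 16.0 in control and 17.6 and 18.6 in KO, at percentiles of 97.0, 96.0, 97.2 and 98.5. Both KO libraries ranked above both controls, though KO 1 exceeded control 1 by little, and the log2 fold difference of 0.25 had a 95% interval of −0.21 to 0.72 (limma adjusted p = 0.800). A further Acsl1 start listed at 46490966 had no peak in any library. The predicted gene Gm31050 also starts within the Acsl1 region, and unstranded accessibility does not tell the genes apart.

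Within the Acsl1 body, the region 17841 bp from the nearest listed start (chr8:46508392-46509222) ranked at 88.6 and 89.0 in control and 90.8 and 91.0 in KO, again with KO above control. Its log2 fold difference of 0.17 (95% interval −0.28 to 0.63) did not pass either. Acsl1 also held 15 regions seen in a single library and 2 held only by the control libraries, at chr8:46482869-46483180 and chr8:46496963-46497142, with folds between 2.73 and 3.16. The other Acsl1 regions of all 4 libraries overlapped between genotypes. The region at chr8:46497493-46498304 ranked at 81.6 and 79.1 in control and 71.9 and 82.7 in KO, and that at chr8:46533984-46534272 at 78.2 and 72.8 in control and 77.7 and 74.4 in KO.

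Acsl3 encodes a synthetase of the endoplasmic reticulum and lipid droplets. The region at its start (chr1:78657309-78658393) had folds of 18.4 and 19.6 in control and 16.0 and 18.5 in KO, and percentiles of 97.8, 98.4, 96.2 and 98.5, with no separation. A region 8404 bp downstream (chr1:78665840-78666619) ranked at 89.7 and 86.8 in control and 85.2 and 81.8 in KO. There the genotypes did not overlap, and the log2 fold difference was −0.29 (95% interval −0.75 to 0.17, limma adjusted p = 0.767). A region in the flank (chr1:78710530-78711179) showed how far a single library can go: its percentiles were 73.8, 66.6, 8.01 and 74.4, and KO 1 alone set its difference of −29.0 points. Part of the window is shared with Utp14b, a gene that overlaps 3 of the Acsl3 regions.

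Acsl4, on the X chromosome, encodes the synthetase that prefers arachidonic acid and supplies the lipids that ferroptosis acts on. At its start (chrX:142390174-142391155), folds were 15.7 and 14.6 in control and 17.2 and 13.9 in KO, with percentiles of 96.0, 94.7, 97.0 and 95.3 that overlapped. A weak neighbor (chrX:142389864-142390108), centered 549 bp downstream of the start, had folds of 2.13 and 3.31 in control and 4.51 and 3.56 in KO. Its percentiles of 67.2 and 52.7 in KO lay above the 2.51 and 45.2 in control (limma on percentiles, unadjusted p = 0.101, adjusted p = 0.868). Sex is not given in the labels used here, and the libraries had 3607 to 4293 summits on X and 59 to 68 on Y, so the part of sex in the Acsl4 values was not tested.

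Acsl5 encodes a synthetase found at mitochondria and the endoplasmic reticulum. Its start-site region (chr19:55253197-55254810) was the widest of the 143 at 1614 bp, and its strongest summit lay 519 to 585 bp downstream of the listed start, not at the start as in Acsl1, Acsl3 and Acsl4. Folds of 11.8 and 12.7 in control and 12.8 and 8.61 in KO gave percentiles of 91.9, 92.4, 93.3 and 87.3. Only KO 2 was low. An Acsl5 region 21888 bp downstream (chr19:55275154-55275359) had the opposite pattern, with percentiles of 23.4 and 49.4 in control and 65.1 and 76.8 in KO (limma on percentiles, unadjusted p = 0.0301, adjusted p = 0.868). This region was weak, with folds from 2.60 to 5.70. Of the weak Acsl5 regions, 2 were held only by the control libraries (chr19:55282212-55282342 and chr19:55299497-55299613), the latter in the flank within the gene Zdhhc6.

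Acsl6 encodes a synthetase known from brain and from red cell precursors, and it held the region with the lowest unadjusted p of the 37 found in all 4 libraries. The region at its start (chr11:54303969-54304430) was weak, with folds of 3.58 and 3.12 in control and 3.45 and 4.34 in KO and percentiles of 57.3, 37.9, 52.9 and 66.6. Compared only with other start-site regions, it stood at percentiles of 3.78, 2.26, 3.20 and 8.39. Another listed start, at 54303824, had a peak in control 1 alone, and the start at 54314903 had none. Accessibility within Acsl6 was higher inside the gene: the regions 32.5 and 39.8 kb downstream of the start shown reached folds of 11.8 and 10.4.

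The region 39.8 kb downstream (chr11:54343661-54344294) had folds of 10.4 and 9.57 in control and 5.54 and 5.29 in KO. Its percentiles were 89.5 and 86.4 in control and 74.4 and 74.4 in KO, so the replicates lay close together and the genotypes did not overlap. The KO minus control difference was −13.5 percentile points, and −0.76 in log2 fold with a 95% interval of −1.21 to −0.30. Its unadjusted p was 0.0262 on percentiles and 0.00508 on log2 fold, and neither passed after adjustment over the 80271 regions tested (limma, adjusted p = 0.868 and 0.640). The neighboring region 32.5 kb downstream (chr11:54336181-54337210) ranked at 88.7 and 90.9 in control and 83.4 and 85.6 in KO, also without overlap, with a log2 fold difference of −0.34 (95% interval −0.81 to 0.14).

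The other Acsl6 regions of all 4 libraries did not separate the genotypes. Those at −1.0, 3.4 and 50.7 kb ranked between 75.3 and 85.5 and overlapped between control and KO. Acsl6 had 29 regions, of which 18 were in a single library, both the most of the 10 genes. It had 0 regions held by both libraries of either genotype alone. The starts of the erythroid markers Klf1, Epor and Alas2 had no peak in any library.

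**Figure D3:**
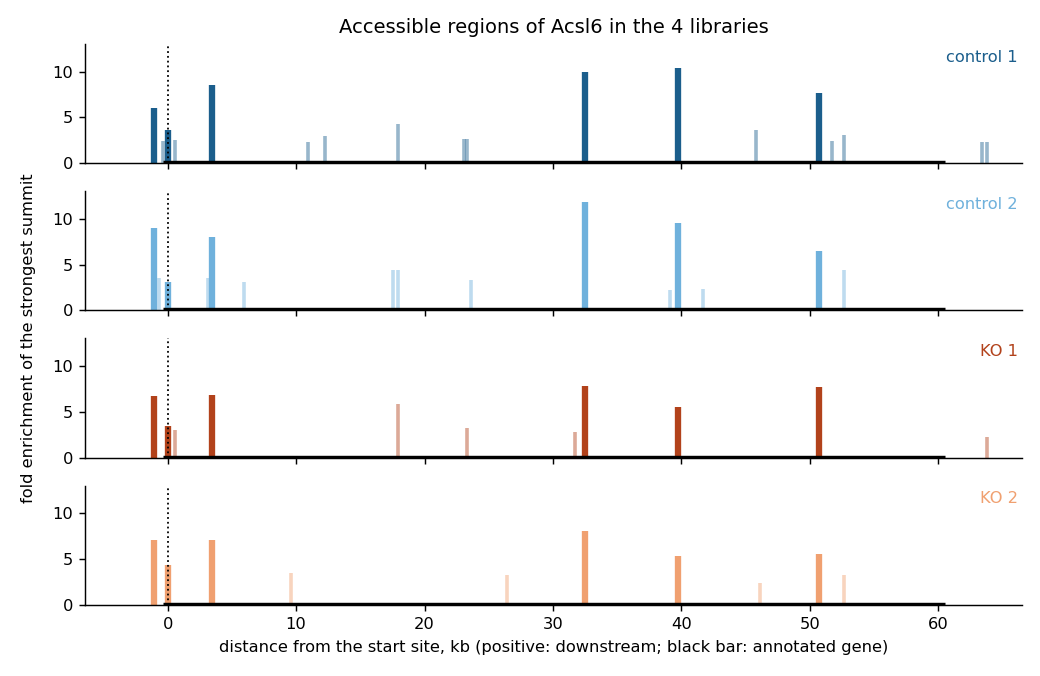
Fold enrichment of the strongest summit (vertical axis) of each Acsl6 region against distance from the start shown above in kb (horizontal axis), with a panel per library. Thick bars are the 6 regions in all libraries and thin pale bars those found in fewer. The bar 39.8 kb downstream stands at 10.4 and 9.57 in the control libraries and at 5.54 and 5.29 in the KO libraries.

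Over the 37 regions in all 4 libraries, the counts in each direction were near those of all regions. Both KO percentiles lay below both controls in 5 regions (13.5%), where 17.8% of all such regions did so. They lay above both controls in 6 regions (16.2%), against 19.0% of all. The median KO minus control difference was 0.472 percentile points for these regions and 0.0551 for all regions in 4 libraries. Without control 2 the same medians were −0.0443 and −0.855. Single member regions ran from −29.0 to 36.1. In limma, 0 of the 37 regions passed an adjusted p of 0.05, as did 0 (0%) of the 80271 regions tested. At an unadjusted p under 0.05 there were 2 member regions on percentiles (5.41%), those of Acsl6 and Acsl5 named above, against 5.63% of all. On log2 fold there were 3 of the 37, the same 2 and the weak Acsl4 region, against 6121 of all 80271 regions. With 2 libraries per genotype an exact permutation test has 6 regroupings and a smallest two-sided p of 0.333, so it cannot pass 0.05.

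**Figure D4:**
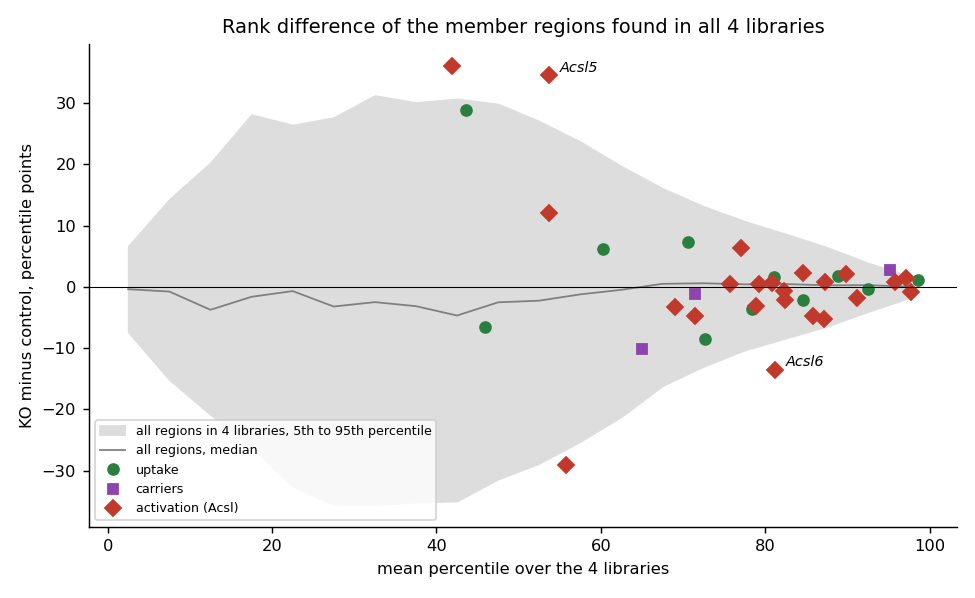
KO minus control difference in percentile points (vertical axis) against the mean percentile over the 4 libraries (horizontal axis) for the 37 member regions, colored by role. The gray band holds the 5th to 95th percentile of all regions in 4 libraries with a like mean, and the line is their median. The labeled Acsl6 point, at −13.5, lies below the band and the labeled Acsl5 point, at 34.5, above it. Read against the band of their own bin of 5 percentile points, 5 of the 37 regions (13.5%) lie outside (Acsl3 and Acsl6 below, Acsl4, Acsl5 and Fabp5 above), where the band leaves out 10% of all regions by construction.

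The length of open chromatin gave a similar picture once library totals were considered. In bases, the peaks of 6 of the 10 windows (Acsl1, Acsl3, Acsl4, Acsl5, Acsl6 and Slc27a4) were below both controls in both KO libraries, and so were 50.6% of all gene windows with peaks in every library. As a share of each library's peak bases, Acsl6 was the only member below both controls, with 102.0 and 73.5 bases per 1000000 in control and 67.0 and 52.8 in KO. Of all windows, 17.4% were in that position. Slc27a1 was the only member above both controls, with 48.4 and 56.6 in control and 64.2 and 57.2 in KO, as were 21.3% of all windows. For Acsl6, the control libraries differed by more than control 2 and KO 1 did. With each list shortened to its 100000 strongest summits by −log10 p, no member window lay below both controls.

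**Figure D5:**
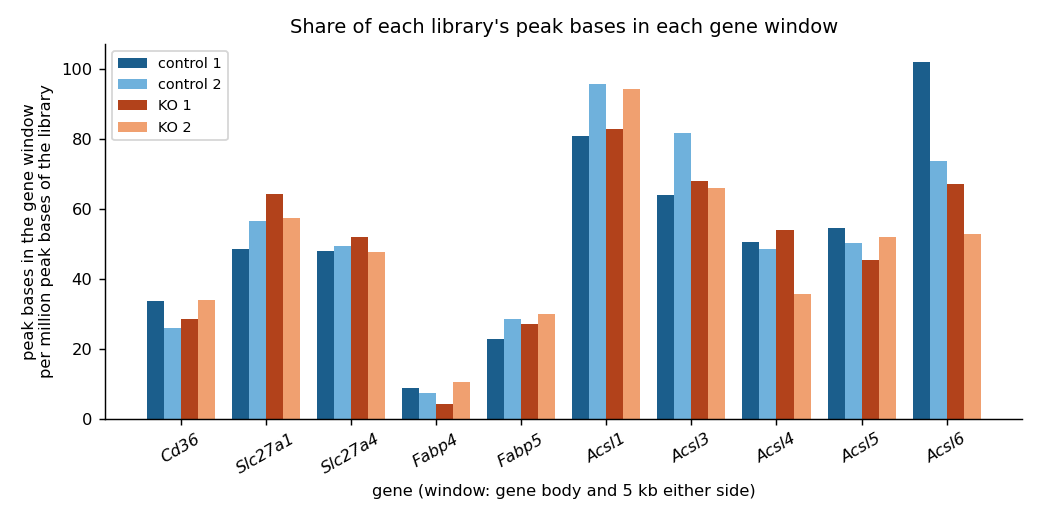
Peak bases within each gene's window per 1000000 peak bases of the library (vertical axis, bars from 0), for the 10 genes (horizontal axis) in the 4 libraries. The 4 Acsl6 bars descend from 102.0 in control 1 to 52.8 in KO 2, and the Fabp4 bars are the lowest, at 4.09 to 10.6.

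Neighboring members of the pathway, 33 other genes of fatty acid transport, binding, activation and thioester handling, also had both open and closed starts. Of the 24 with a listed start, 14 had it in a region of all 4 libraries and 10 had no peak there in any library. The closed ones were Fabp1, Fabp2, Fabp6, Fabp7, Acsbg1 and the medium-chain synthetases Acsm1, Acsm2, Acsm3, Acsm4 and Acsm5. Among the open ones, Dbi, the acyl-CoA-binding protein, ranked at 97.3 and 99.6 in control and 97.8 and 99.1 in KO. Acss2, which activates acetate in the cytosol, ranked at 97.9 and 98.7 in control and 98.5 and 99.0 in KO.

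In the windows of those 33 genes, 80 of 349 regions (22.9%) were in all 4 libraries, 13 (3.72%) were held only by control libraries and 2 (0.573%) only by KO libraries, against 2.46% and 1.41% of all regions. KO ranked below both controls in 13 of the 80 (16.2%) and above both in 18 (22.5%), against 17.8% and 19.0% of all. In limma 0 of the 80 passed, with 5 (6.25%) at an unadjusted p under 0.05, against 5.63% of all. The highest-ranked regions held by a single genotype were all in control. They lay in Acsf3 (chr8:122791348-122791594, folds of 3.21 and 3.26), Acss2 (chr2:155524467-155524654, folds of 2.93 and 3.56), Acot7 (chr4:152263893-152264165, folds of 3.16 and 2.73) and Acsf2 (chr11:94570647-94571026, folds of 2.28 and 3.56). Others, at lower ranks, lay in Slc27a2 and again in Acsf3 and Acot7. The region held only by KO libraries with the highest rank was in Fabp3 (chr4:130309294-130309710, folds of 2.58 and 2.47).

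Of the 8 member genes with a listed start, 7 had an open one. Set beside beta-oxidation and fatty acid synthesis genes, those 7 starts had median percentiles of 96.0 and 94.7 in control and 96.2 and 95.3 in KO. The starts of beta-oxidation genes were in regions of all 4 libraries for 15 of 15 genes with a listed start. Their medians were 97.9, 97.6, 97.3 and 96.6. Hadha and Hadhb share a start-site region, which stands for both genes in that count and entered the medians a single time. For fatty acid synthesis the count was 11 of 13 genes, with medians of 97.1, 96.8, 96.7 and 96.7. These medians were not tested against each other. The 7 starts ran from 37.9 to 99.7, with Acsl6 lowest in every library.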

How the data were processed

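ATAC-Seq peak lists of 2 control and 2 KO libraries were analyzed, each called by the authors on its own library. The submitters' processing notes name Bowtie2, MACS2 and mm10. The lists the authors deposited give for each summit a score, a fold (the ratio of signal to local background) and the −log10 p and −log10 q. Reads were not analyzed here, so neither depth nor its precision is known. In 253 to 492 rows per list the deposited summit was a chromosome position rather than an offset and was read as such. Regions were ranked within each library by the highest fold, and percentiles were turned into normal scores and compared between genotypes with limma 3.58.1 in R 4.3.3 over the 80271 regions in all 4 libraries, with Benjamini-Hochberg adjustment. Intervals for single regions came from limma on the log2 of the deposited fold, centered on each library's median. Both fits were tested on simulated data with planted log2 fold shifts larger than any difference reported here. That test does not bear on differences of the reported size. Tables were made in Python 3.11.15 (pandas 2.3.3, numpy 2.4.6).

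Genes and starts came from RefSeq (GRCm38.p6), and 8 of the 10 genes had an entry in the promoter table. Named were every member gene with its strongest region, its start-site region and each region held by a single genotype, and up to 10 regions of other pathway genes held by a single genotype. Members, lists and tests were chosen with earlier results of these data known. Alternatives were a −log10 q of at least 5, the 100000 strongest summits, a flank of 1000 bp, coverage of a share of 0.5 of a region, regions in at least 2 libraries, ranks by −log10 p, autosomes, log2 fold, a replicate block and leaving out each library. Same-numbered libraries deviated together with a correlation of 0.0079, so the numbers were not taken to pair them.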

Additional observations from a re-analysis of the deposited data

How the results depend on the processing

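The number of member regions passing limma was 0 in every fit, the replicate block included (0 regions). As 0 of all 80271 regions passed, this count says nothing about stability. In fits without a library, the lone library was assumed to vary like the other genotype. Regions only in control numbered 6, and 2 at the −log10 q minimum of 5, 0 with the 100000 strongest summits and 11 to 26 when a library was left out, where presence in the remaining library of that genotype was enough or a single library had to lack the peak. Regions only in KO numbered 1, and 0, 2 and 2 to 20 under the same settings. Regions in all libraries numbered 37, and 24 with the 100000 strongest summits. For these counts the values over all regions under each setting are not given. Changes at the member genes therefore cannot be told from changes in the lists as a whole. The median rank difference was 0.472 (0.0551 over all regions). Leaving out a library gave −0.0443 without control 2 (−0.855 over all regions) to 1.37 without control 1 (0.539 over all regions). The median was 0.0919 on autosomes (0.0612 over all regions) and −0.308 ranked by −log10 p (0.0631 over all regions). At a −log10 q of at least 5 it was −7.19 (−3.92 over all regions). With ranks among regions of at least 2 libraries it was −1.35 (−1.17 over all regions). Acsl6 was the single window with both KO shares of peak bases below both controls, and 0 windows were so under either stricter list. Among the 11 strongest or start-site regions, ranking by −log10 p moved 1 difference, that of Acsl1, by more than its replicate SD. Leaving out a library cannot move a difference that far, and 5 of those 44 values changed sign.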
